A study of Rattus norvegicus with 12 samples.

Results

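The unfolded protein response and the ATF4 pathway were followed in rat liver through 10 genes taken by symbol: Atf4, Ddit3, Trib3, Asns, Chac1, Hspa5, Sdf2l1, Herpud1, Xbp1 and Dnajb9. Every probe set that the platform annotation assigns to one of these genes alone was taken. All 10 genes were found, of 14217 genes named on the array, with 12 of the 31042 probe sets that are not controls. Trib3 has 3 probe sets and each other gene has 1. All 12 lay above the dim part of the array and were among the 21730 probe sets tested.

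The livers came from adult male Sprague-Dawley rats, 10 weeks old, dosed by gavage every 24 h during an exposure of 72 h. Myclobutanil and propiconazole were given at 300 mg/kg/day and triadimefon at 175 mg/kg/day, each to 3 rats, and 3 rats were controls. The labels do not say whether controls received a vehicle, and they name no allele or other treatment for any group. The 3 compounds are triazole fungicides, which block the fungal sterol demethylase. They differ in what the triazole is attached to: a ketone marks triadimefon, a dioxolane ring propiconazole, and a nitrile with a butyl chain myclobutanil. Each liver was hybridized to its own array, so the spread within a group is that between rats.

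When unfolded proteins build up in the endoplasmic reticulum (ER), 3 membrane sensors respond. The kinase PERK phosphorylates the initiation factor eIF2, which favours translation of the transcription factor ATF4, and other kinases reach ATF4 from amino acid shortage, heme shortage or viral RNA. The sensors IRE1 and ATF6 raise chaperones and degradation factors of the ER, IRE1 by splicing the Xbp1 transcript. The liver secretes most plasma proteins, and its ER is also where microsomal P450 enzymes are held. Hepatocyte markers were high in all groups: the mean level of 9 of them, the albumin gene Alb included, ran from 3.14 to 3.40 log-like units over the 12 arrays.

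The pathways read short DNA elements near gene starts, and matches to these are shown for the genes that hold them. In the 250 bases before each start site (RefSeq promoters, assembly GRCr8; all 10 genes matched), both strands were searched for 4 motifs. These were the ER stress element ERSE (CCAAT, any 9 bases, CCACG), the related ERSE-II (ATTGG, any 1 base, CCACG), the C/EBP-ATF element read by ATF4 (TGATGNAA) and the UPR element (TGACGTGG). The motifs were searched each on its own, and no 2 matches overlapped in these genes. Bases of a match are in capitals, and each line runs 5′ to 3′ on the strand of the gene.
Hspa5, chr3:38452953-38453011, plus strand: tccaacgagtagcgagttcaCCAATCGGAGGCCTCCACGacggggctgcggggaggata
Xbp1, chr14:84604538-84604596, plus strand: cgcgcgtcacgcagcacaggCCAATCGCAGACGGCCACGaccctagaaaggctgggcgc
Herpud1, chr19:10614801-10614911, minus strand: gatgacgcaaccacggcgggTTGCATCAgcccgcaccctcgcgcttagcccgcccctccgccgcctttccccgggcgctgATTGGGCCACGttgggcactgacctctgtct
Chac1, chr3:126795944-126795991, plus strand: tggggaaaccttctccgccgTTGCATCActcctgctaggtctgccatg
Trib3, chr3:161275534-161275574, minus strand: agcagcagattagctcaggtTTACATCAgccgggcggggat

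Hspa5 and Xbp1 each held an ERSE, which 0.0657% of 33469 promoters of that length held. The ERSE of Hspa5 ended 25 bases before the start site and that of Xbp1 47 bases before it. Herpud1 held an ERSE-II, found in 0.0418% of promoters, and a C/EBP-ATF element on the opposite strand. The C/EBP-ATF element, found in 3.4% of promoters, also matched in Chac1 and Trib3. No match to the UPR element (0.52% of promoters) was found in these windows, and Atf4, Ddit3, Asns, Sdf2l1 and Dnajb9 held none of the 4 motifs there. The start sites used for Asns, Dnajb9 and Herpud1 lay inside the annotated gene rather than at its 5′ end. No other start site was searched. A match describes letters and does not show a site in use.

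Levels below are the deposited log-like values after quantile normalization, and a difference between groups is in the same units and is no fold change, since the base of the logarithm is not known. Each difference is given ± its standard error from limma, with 3 rats per group. The error rests on 1 spread per probe set estimated over all 4 groups. It is therefore the same for each compound and is not the spread of the 2 groups compared. A gene is called when its limma p, adjusted by Benjamini-Hochberg over 21730 probe sets, is under 0.05. No gene of the 10 was called in any comparison. With limma at an unadjusted p under 0.05, 5 genes stood higher and 0 lower with myclobutanil, 3 and 0 with propiconazole, and 3 and 0 with triadimefon. Over all probe sets, 1.82% were called for myclobutanil against control, 1.43% for propiconazole and 0.769% for triadimefon, while 9.19%, 7.73% and 7.02% stood higher and 11.9%, 6.78% and 6.42% lower at the unadjusted threshold. In a comparison of all 4 groups at once (limma F test, 1.07% of probe sets called), the smallest adjusted p among the 10 genes was 0.0603, for Sdf2l1.

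The array of myclobutanil replicate 1 stood apart, with a median correlation of 0.931 with the other arrays (0.963 to 0.982 for the other 11) and a deposited median of 0.157 (0.0182 to 0.0552). Each other value with myclobutanil includes it. Without it, the difference from control was 0.14 for Atf4, 0.13 for Ddit3, 0.74 for Trib3, 0.52 for Asns and -0.038 for Chac1. It was 0.19 for Hspa5, 0.35 for Sdf2l1, -0.20 for Herpud1, 0.42 for Xbp1 and 0.23 for Dnajb9. Of these 10 genes 0 were called for myclobutanil without that array, the smallest limma adjusted p being 0.0575 for Asns, though over all probe sets 670 were called in place of 395.

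With each compound, 9 of the 10 differences from control were above 0, and 8 or 9 on the deposited values or with median centring. Their median was 0.28 for myclobutanil, 0.28 for propiconazole and 0.31 for triadimefon, against medians of -0.014, -0.012 and -0.013 over all probe sets tested, of which 44.6%, 43.4% and 43.4% lay above 0. The 3 comparisons share the same control rats, so they are not independent of each other. The 10 genes were chosen with earlier results of these data known. The shares set against all probe sets here are therefore a description and no test of the set. All 3 treated rats lay above all 3 control rats in 6 genes with myclobutanil, 5 with propiconazole and 4 with triadimefon, where 10.2%, 12.1% and 12.5% of all probe sets did so. All 3 lay below the controls in 0, 0 and 1 genes (13.1%, 15.7% and 15.8% of all probe sets). These counts depended on the scaling. On the deposited values Atf4, Ddit3, Hspa5 and Xbp1 overlapped the controls with myclobutanil, Atf4 and Herpud1 with propiconazole, and Xbp1 with triadimefon. Sdf2l1 no longer lay wholly below them with triadimefon, whereas Asns with myclobutanil and Trib3 with triadimefon came to lie wholly above. The median of the 10 genes with myclobutanil depended on the scaling of the arrays, at 0.20 on the deposited values and 0.18 with median centring. Those of the other compounds stayed between 0.25 and 0.32. The lone gene below 0 was Herpud1 with myclobutanil and Sdf2l1 with propiconazole and triadimefon.

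**Figure D1:**
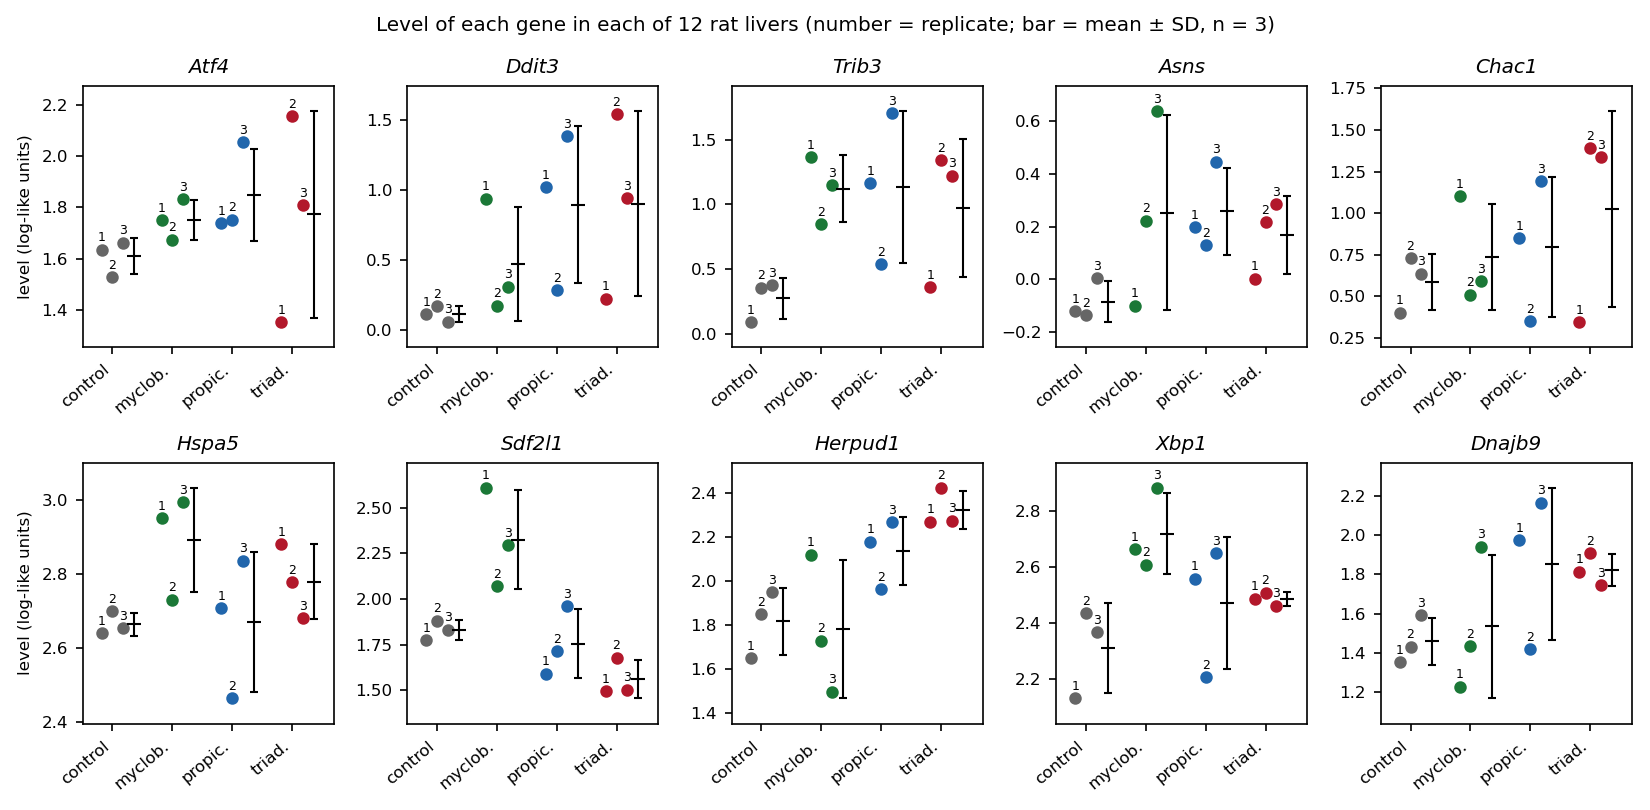
Level of each of the 10 genes in each of 12 livers, in log-like units on separate vertical scales, by group (myclob., myclobutanil; propic., propiconazole; triad., triadimefon). Points are rats with their replicate number, and bars are the mean ± SD of 3 rats. Ddit3 lies between 0.056 and 0.17 in the control rats and between 0.17 and 1.54 in the treated rats.

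Atf4 encodes the transcription factor at the head of the ATF4 pathway, which is controlled mainly at translation. Its level was 1.64, 1.53 and 1.66 in control replicates 1, 2 and 3, and 1.75, 1.67 and 1.83 with myclobutanil. With propiconazole it was 1.74, 1.75 and 2.06, and with triadimefon 1.35, 2.16 and 1.81. The myclobutanil and propiconazole groups lay above the controls, myclobutanil replicate 2 only just, whereas triadimefon held both the lowest and the highest of the 12 rats. As deposited, the myclobutanil and propiconazole groups overlapped the controls, of which replicate 3 stood at 1.74. The differences from control were 0.14 ± 0.17, 0.24 ± 0.17 and 0.16 ± 0.17 (limma adjusted p = 0.636, 0.556 and 0.719), so each was within 1.5 standard errors of 0. The triadimefon difference fell to -0.027 without triadimefon replicate 2.

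Ddit3 encodes CHOP, a transcription factor raised by ATF4 and linked to cell death under lasting stress. It was at 0.11, 0.17 and 0.056 in the controls, which lay close together. With myclobutanil it was 0.94, 0.17 and 0.31, with propiconazole 1.02, 0.28 and 1.38, and with triadimefon 0.22, 1.54 and 0.94. Every treated rat lay above every control rat, myclobutanil replicate 2 by less than the rounding shows, but 1 rat in each treated group was near them: myclobutanil replicate 2, propiconazole replicate 2 and triadimefon replicate 1. As deposited, myclobutanil replicate 2 was at 0.16, below control replicate 2 at 0.17. The SD was 0.41 with myclobutanil, 0.56 with propiconazole and 0.66 with triadimefon, against 0.057 in control (n = 3 each). Differences from control were 0.36 ± 0.33, 0.78 ± 0.33 and 0.79 ± 0.33 (limma adjusted p = 0.549, 0.308 and 0.329). The 95% interval with propiconazole ran from 0.052 to 1.51 and with triadimefon from 0.059 to 1.52.

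Trib3 encodes a pseudokinase that ATF4 and CHOP induce and that restrains Akt signalling. Its brightest probe set was at 0.092, 0.36 and 0.37 in control and at 1.36, 0.85 and 1.15 with myclobutanil. Propiconazole rats had 1.16, 0.54 and 1.7, and triadimefon rats 0.36, 1.34 and 1.22. All rats given myclobutanil or propiconazole exceeded the controls, while triadimefon replicate 1 lay among them. The differences of 0.85 ± 0.30, 0.86 ± 0.30 and 0.70 ± 0.30 were the largest of the 10 genes for myclobutanil and propiconazole and the second largest, after Ddit3, for triadimefon (limma adjusted p = 0.143, 0.203 and 0.331).

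The other Trib3 probe sets gave the same order of treated above control. The dimmest, probe set 1370694_at, was at -0.25, -0.24 and -0.25 in the control rats and at 0.18, 0.19 and 0.31, then 0.43, 0.055 and 0.82, then -0.17, 0.65 and 0.35 with myclobutanil, propiconazole and triadimefon. Here all 9 treated rats lay above all 3 controls, and the differences were 0.47 ± 0.20, 0.68 ± 0.20 and 0.52 ± 0.20 (limma adjusted p = 0.202, 0.132 and 0.274). Probe set 1370695_s_at stood at 0.65 ± 0.22, 0.70 ± 0.22 and 0.53 ± 0.22 (limma adjusted p = 0.142, 0.171 and 0.335), again with all 9 treated rats above the controls.

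Asns makes asparagine and is a standard target of ATF4 under amino acid shortage. It was at -0.12, -0.14 and 0.0034 in control, and at -0.10, 0.22 and 0.64 with myclobutanil. The values were 0.20, 0.13 and 0.45 with propiconazole and 0.0023, 0.22 and 0.28 with triadimefon. Only the propiconazole group lay wholly above control. Differences were 0.34 ± 0.15, 0.34 ± 0.15 and 0.25 ± 0.15 (limma adjusted p = 0.234, 0.333 and 0.517).

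Chac1 encodes an enzyme that breaks down glutathione and is raised by ATF4 and CHOP. Control rats were at 0.40, 0.73 and 0.64, myclobutanil rats at 1.10, 0.51 and 0.59, propiconazole rats at 0.85, 0.35 and 1.19, and triadimefon rats at 0.35, 1.39 and 1.34. All 3 treated groups overlapped the controls, with 1 high rat under myclobutanil and 1 rat at or below the lowest control under each of the other compounds. The differences were 0.15 ± 0.28, 0.21 ± 0.28 and 0.44 ± 0.28 (limma adjusted p = 0.788, 0.794 and 0.55). Without myclobutanil replicate 1 that of myclobutanil was -0.038.

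Among the ER genes, Hspa5 encodes BiP, the main ER chaperone, which also holds the stress sensors inactive. It was at 2.64, 2.70 and 2.65 in control, 2.95, 2.73 and 3.00 with myclobutanil, 2.71, 2.46 and 2.84 with propiconazole and 2.88, 2.78 and 2.68 with triadimefon. The myclobutanil rats all lay above the controls, by 0.23 ± 0.10 on average (limma adjusted p = 0.23), and the other 2 groups overlapped them at 0.0056 ± 0.10 and 0.12 ± 0.10 (limma adjusted p = 0.991 and 0.671). The scaling of the arrays decides these values. As deposited, Hspa5 was at 2.60, 2.76 and 3.01 in control and at 3.24, 2.57 and 2.67 with myclobutanil, which overlap. The differences on that scale were 0.037 for myclobutanil, -0.15 for propiconazole and -0.029 for triadimefon. No direction is therefore given for Hspa5.

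Sdf2l1 encodes an ER protein that works with BiP and is strongly induced by ER stress. Its values were 1.77, 1.88 and 1.83 in control, 2.61, 2.07 and 2.30 with myclobutanil, 1.59, 1.71 and 1.96 with propiconazole and 1.5, 1.68 and 1.5 with triadimefon. Myclobutanil rats lay above every other rat, and triadimefon rats below every control rat. The differences from control were 0.50 ± 0.13 with myclobutanil, -0.074 ± 0.13 with propiconazole and -0.27 ± 0.13 with triadimefon (limma adjusted p = 0.0826, 0.857 and 0.418). On the deposited scale the differences were 0.44, -0.095 and -0.28, and both of these separations were lost. There myclobutanil replicate 2 (2.018) lay below propiconazole replicate 3 (2.024), and triadimefon replicate 2 (1.75) above control replicate 1 (1.71). The myclobutanil rats still all lay above the controls. Without myclobutanil replicate 2, the lowest of its group, the myclobutanil difference was 0.63 and passed (limma adjusted p = 0.0286, with a range of 0.0286 to 0.305 over the alternatives). That fit called 924 of all probe sets for myclobutanil, in place of 395.

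Herpud1 encodes an ER membrane protein that organizes the degradation of misfolded proteins. It was at 1.65, 1.85 and 1.95 in control, 2.12, 1.73 and 1.5 with myclobutanil, 2.18, 1.96 and 2.27 with propiconazole and 2.27, 2.42 and 2.27 with triadimefon. Propiconazole and triadimefon rats all lay above the controls, propiconazole replicate 2 by a small margin, while the myclobutanil rats spread to both sides of them. As deposited, the propiconazole rats overlapped the controls, of which replicate 3 stood at 2.11. Differences were -0.035 ± 0.15, 0.32 ± 0.15 and 0.51 ± 0.15 (limma adjusted p = 0.912, 0.351 and 0.165). The triadimefon difference passed without myclobutanil replicate 1 (0.50, limma adjusted p = 0.0392), whose array stood apart, when the 6 arrays of the 2 groups were fitted alone (0.52, limma adjusted p = 0.0387), and with array weights (0.48, limma adjusted p = 0.0183). In that order, these fits called 611, 609 and 1028 of all probe sets for triadimefon, against 167 in the main fit. Over all alternatives the limma adjusted p of the triadimefon difference ran from 0.0183 to 0.41.

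Xbp1 encodes the transcription factor made active by IRE1; the splicing itself was not analysed here. Its level was 2.13, 2.44 and 2.37 in control, 2.66, 2.61 and 2.88 with myclobutanil, 2.56, 2.21 and 2.65 with propiconazole and 2.49, 2.51 and 2.46 with triadimefon. Myclobutanil and triadimefon rats lay above all controls, the latter with an SD of 0.023 (n = 3), and propiconazole replicate 2 was among the controls. The differences were 0.41 ± 0.12, 0.16 ± 0.12 and 0.17 ± 0.12 (limma adjusted p = 0.108, 0.6 and 0.582). That of myclobutanil was 0.25 on the deposited scale, where the myclobutanil and triadimefon rats both overlapped the controls.

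Dnajb9 encodes ERdj4, a BiP cofactor and target of XBP1. Values were 1.35, 1.43 and 1.59 in control, 1.23, 1.43 and 1.94 with myclobutanil, 1.98, 1.42 and 2.17 with propiconazole and 1.81, 1.91 and 1.74 with triadimefon. Only the triadimefon group lay wholly above control. The differences were 0.077 ± 0.20, 0.40 ± 0.20 and 0.37 ± 0.20 (limma adjusted p = 0.844, 0.396 and 0.467), and the myclobutanil value was -0.13 without its replicate 3.

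**Figure D2:**
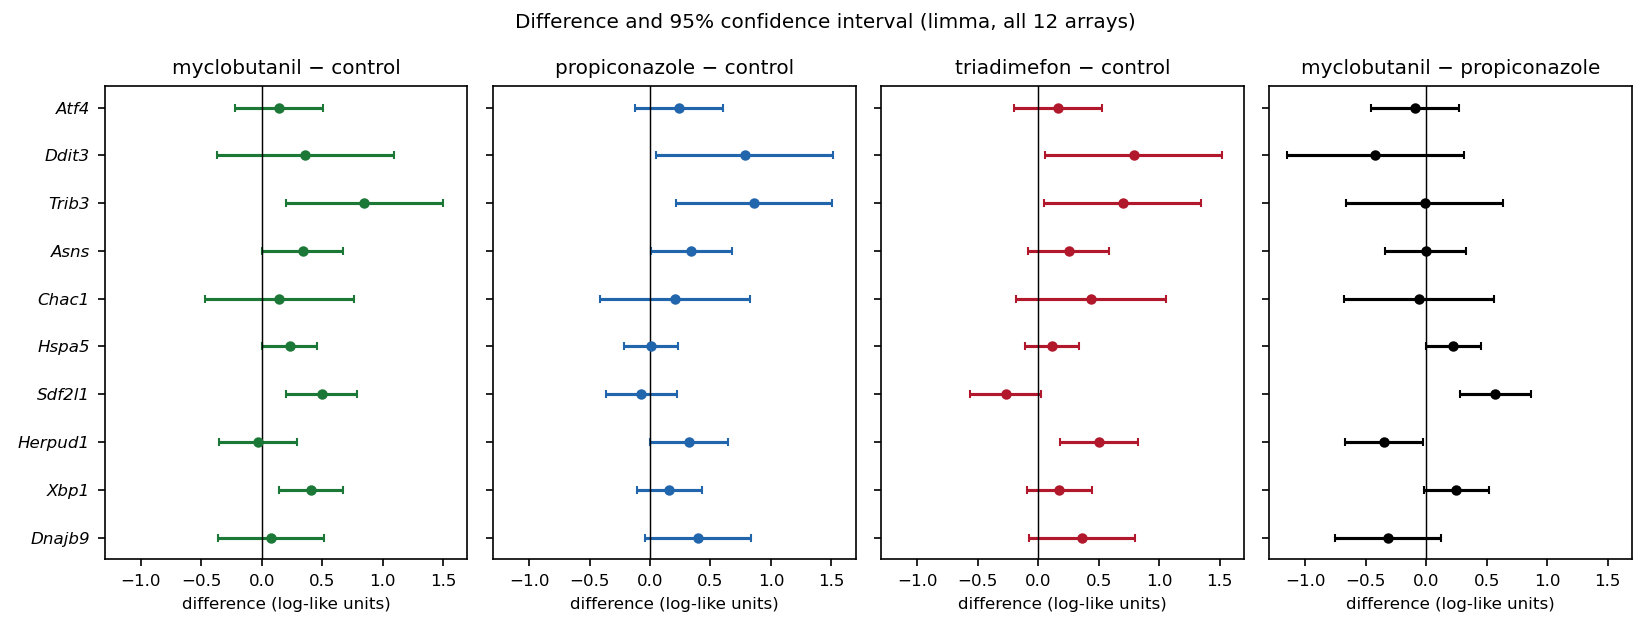
Difference between groups for each gene (horizontal axis, log-like units) with its 95% interval from limma over all 12 arrays, for each compound minus control and for myclobutanil minus propiconazole. The unadjusted interval of Trib3 lies above 0 for each compound, and that of Sdf2l1 lies above 0 for myclobutanil minus control (0.20 to 0.79) and myclobutanil minus propiconazole (0.28 to 0.86).

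Myclobutanil and propiconazole were given at the same dose and time, and this was the 1 pair of compounds compared. Limma called 0 of 21730 probe sets between them (0%; without adjustment, 4.86% passed as higher and 5.26% as lower). Of the 10 genes, Sdf2l1 stood higher with myclobutanil by 0.57 ± 0.13 (limma adjusted p = 0.256, 95% interval 0.28 to 0.86), with all 3 myclobutanil rats above all 3 propiconazole rats. It was the 1 gene of the 10 without overlap in this pair (6.31% of all probe sets higher and 7.13% lower). On the deposited values Sdf2l1 overlapped too, with myclobutanil replicate 2 at 2.018 and propiconazole replicate 3 at 2.024. Herpud1 stood lower by 0.35 ± 0.15 (limma adjusted p = 0.479, 95% interval -0.68 to -0.031), with overlap at myclobutanil replicate 1. These were the 2 genes at an unadjusted p under 0.05. Array weights called Herpud1 (-0.43, limma adjusted p = 0.0386), in a fit that called 344 of all probe sets for this pair, and no other alternative called a gene of the 10 here.

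The ATF4 branch gave small differences between the same 2 compounds with wide intervals. Trib3 differed by -0.014 (95% interval -0.66 to 0.63), Asns by -0.0044 (-0.34 to 0.33), Chac1 by -0.062 (-0.68 to 0.56), Atf4 by -0.096 (-0.46 to 0.27) and Ddit3 by -0.42 (-1.15 to 0.31), each as myclobutanil minus propiconazole. Triadimefon was given at a lower dose and is not compared with the others by a test. Side by side, the group means of Sdf2l1 were 2.33 for myclobutanil, 1.76 for propiconazole and 1.56 for triadimefon, with 1.83 in control. Those of Herpud1 were 1.78, 2.14 and 2.32, with 1.82 in control.

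In most of these genes the rats of a treated group differed more among themselves than the control rats did. The SD exceeded that of the controls in 9 of 10 genes with myclobutanil, 10 with propiconazole and 7 with triadimefon, where 71.5%, 45% and 44.2% of all probe sets did so. The median SD of the 10 genes was 0.099 in control, 0.29 with myclobutanil, 0.21 with propiconazole and 0.13 with triadimefon. Over all probe sets it was 0.053, 0.099, 0.047 and 0.047. These SDs are those after quantile normalization, and the counts depend on it. As deposited, Atf4 spread more in control (1.53 to 1.74) than with myclobutanil (1.63 to 1.76). Herpud1 spread more in control (1.59 to 2.11) than with propiconazole (1.95 to 2.34).

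The same rats were often at the ends of their group. Propiconazole replicate 3 was the highest of its group in 10 of 10 genes, and propiconazole replicate 2 the lowest in 8. They were the highest and the lowest in 32.6% and 34.2% of all probe sets. Triadimefon replicate 1 was the lowest of its group in all 5 genes of the ATF4 branch (Atf4, Ddit3, Trib3, Asns and Chac1) and in 34.4% of all probe sets, while triadimefon replicate 2 was the highest in 8 of the 10 genes (34.6%). Myclobutanil replicate 2 was the lowest in 7 genes (20.7% of all probe sets) and the highest in none. The controls held such a rat too. Control replicate 1 was the lowest of its group in 7 genes (36.4% of all probe sets) and the highest in none. Hspa5, Sdf2l1, Herpud1, Xbp1 and Dnajb9 were all lowest in it, and its values enter the control mean of every difference from control. RNA integrity was read from the GAPDH control probe sets, as the level at the 3' end minus that at the 5' end. It was 0.827 in triadimefon replicate 1, against 0.513 and 0.423 in the other 2 rats of its group. It was 0.554, 0.352 and 0.398 in propiconazole replicates 1, 2 and 3, and 0.677, 0.478 and 0.716 in the myclobutanil rats, with the lowest value in replicate 2. The control rats had 0.368, 0.800 and 0.808, so replicates 2 and 3 lay above all propiconazole rats. By the actin control probe sets the controls had 0.487, 0.889 and 0.671, and the propiconazole rats 0.737, 0.556 and 0.615. There only control replicate 2 lay above all propiconazole rats, while the order of rats within each treated group was the same. The part of RNA integrity in these patterns and in the differences from control was not tested.

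**Figure D3:**
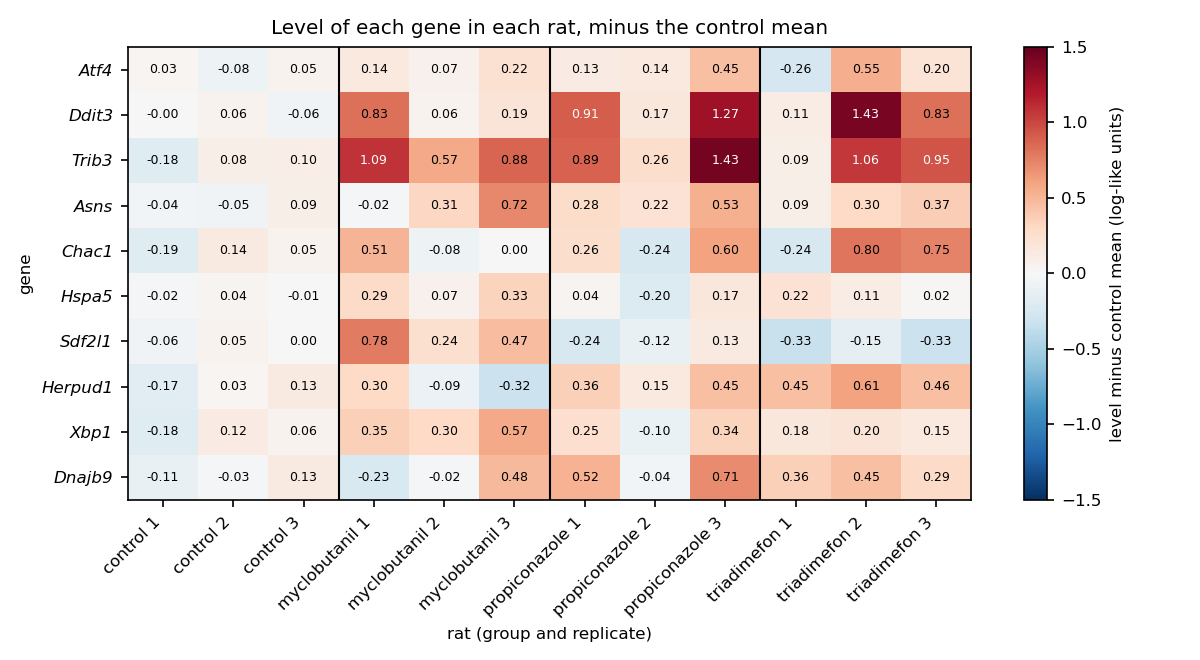
Level of each gene (rows) in each rat (columns) minus the control mean of that gene, in log-like units (colour and printed value). Within their groups, Ddit3, Trib3 and Chac1 are highest in propiconazole replicate 3 and triadimefon replicate 2 and lowest in propiconazole replicate 2 and triadimefon replicate 1, while Sdf2l1 is above the control mean in all myclobutanil rats and below it in all triadimefon rats.

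Whether the genes varied together among rats of one group was measured over the 12 rats after each group's mean was removed, in 8 pairs. Rats were permuted within their groups (exact, 1296 arrangements, 2-sided), with Benjamini-Hochberg adjustment over the 8 pairs, and no pair passed by Pearson r or by Spearman rho. The planned permutation, over all 12 rats at once, passed 5 pairs by r, but it treats the values as free although 4 group means had been removed, and its p values are too small.

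Trib3 had r = 0.774 with Atf4 (exact permutation p = 0.0355, adjusted 0.132) and rho = 0.776 (exact permutation p = 0.0478, adjusted 0.128). Ddit3 had r = 0.781 and rho = 0.510 with Atf4 (exact permutation p = 0.0664 and 0.234, adjusted 0.133 and 0.312). Chac1 had r = 0.744 and rho = 0.580 (exact permutation p = 0.0988 and 0.147, adjusted 0.158 and 0.236), and Asns r = 0.484 and rho = 0.790 (exact permutation p = 0.0494 and 0.017, adjusted 0.132 and 0.0679). Without the 2 rats farthest from the median of Atf4, triadimefon replicates 1 and 2, r was 0.692 for Trib3, 0.510 for Ddit3, 0.483 for Chac1 and 0.587 for Asns.

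Xbp1 had r = 0.785 and rho = 0.755 with Hspa5 (exact permutation p = 0.00772 and 0.0139, adjusted 0.0617 and 0.0679), the smallest adjusted p by r of the 8 pairs. Dnajb9 had r = 0.674 and rho = 0.650 (exact permutation p = 0.166 and 0.102, adjusted 0.221 and 0.204). Sdf2l1 had r = 0.515 and rho = 0.413 (exact permutation p = 0.252 and 0.317, adjusted 0.288 and 0.362), and Herpud1 r = 0.30 and rho = 0.308 (exact permutation p = 0.461 and 0.436, adjusted 0.461 and 0.436). Without propiconazole replicate 2 and myclobutanil replicate 2, the rats farthest from the median of Hspa5, r was 0.583 for Xbp1, 0.480 for Dnajb9, 0.348 for Sdf2l1 and 0.072 for Herpud1. The relations to Hspa5 changed with the scaling: on the deposited values r was 0.869 for Sdf2l1, 0.883 for Herpud1, 0.891 for Xbp1 and 0.272 for Dnajb9. The labels name no batch in which to repeat them.

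The gene most alike to each of the 10 over the 12 arrays was taken as the one with the highest Pearson r among 11833 other genes, which is a description, as the highest of so many is chosen. Ddit3 was most like Dnajb1 (r = 0.978), a cytosolic heat shock cochaperone gene, Trib3 most like Hspb1 (0.957), a small heat shock protein gene, and Chac1 most like Atf3 (0.955), a stress-induced transcription factor gene. Dnajb1 stood at 0.65 ± 0.46, 1.22 ± 0.46 and 1.32 ± 0.46 from control with myclobutanil, propiconazole and triadimefon (limma adjusted p = 0.431, 0.253 and 0.247), and was not called either. Hspa5 was most like Tmed7 (0.925), a cargo receptor gene between ER and Golgi, and Sdf2l1 most like the retinol dehydrogenase gene Rdh10 (0.916). Herpud1 was most like the clock repressor gene Nr1d2 (0.910), Atf4 like Sertad1 (0.872), Asns like Pbdc1 (0.944), Xbp1 like Naa25 (0.952) and Dnajb9 like Eml4 (0.980).

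Other genes of these pathways were read from lists written from general knowledge, with earlier results of these data known. Of 32 tested ATF4 target genes beside the 10 above, limma called Cth, the cystathionine gamma-lyase gene of cysteine synthesis, which fell with propiconazole by 0.45 ± 0.094 (limma adjusted p = 0.0414). That call ended without any single control, propiconazole or triadimefon rat, as well as on the deposited scale (-0.61, limma adjusted p = 0.116). Cth stood at -0.34 ± 0.094 with myclobutanil and -0.40 ± 0.094 with triadimefon (limma adjusted p = 0.0842 and 0.0877). Read by its brightest probe set, no other gene of the list was called for any compound. A dimmer probe set of Cebpg, a C/EBP partner of ATF4, stood higher with myclobutanil (0.32 ± 0.068, limma adjusted p = 0.0417), while its brighter one was at 0.011 ± 0.16 (limma adjusted p = 0.976). By the brightest probe set, the list had 4 genes higher and 3 lower at an unadjusted limma p under 0.05 for myclobutanil, 7 and 1 for propiconazole and 3 and 2 for triadimefon.

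The list's median differences were 0.10, 0.091 and 0.042, the last being 0.079 on the deposited values and 0.090 with median centring. With myclobutanil, the amino acid transporter subunit gene Slc3a2 stood at 0.48 ± 0.12 and the serine synthesis gene Psat1 at 0.58 ± 0.16 (limma adjusted p = 0.0734 and 0.0841). Slc3a2 stood at 0.52 ± 0.12 with propiconazole (limma adjusted p = 0.0679). Atf5, a factor related to ATF4, stood at -0.45 ± 0.19 with myclobutanil, -0.28 ± 0.19 with propiconazole and -0.65 ± 0.19 with triadimefon (limma adjusted p = 0.204, 0.546 and 0.165). Between myclobutanil and propiconazole the smallest p values were those of the transaminase gene Got1 (-0.70 ± 0.19) and the seryl-tRNA synthetase gene Sars1 (-0.29 ± 0.11), neither called (limma adjusted p = 0.328 and 0.457). Atf3, named above, stood at 0.75 ± 0.64, 1.14 ± 0.64 and 1.36 ± 0.64 from control with the 3 compounds (limma adjusted p = 0.514, 0.451 and 0.387), with group SDs from 0.38 in control to 1.26 with triadimefon.

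Upstream of ATF4, 12 genes of ER stress sensors and eIF2 control were tested and none was called in limma (at an unadjusted p under 0.05, 3 up and 1 down for myclobutanil, 1 and 0 for propiconazole, 0 and 0 for triadimefon). Their medians were 0.026, 0.050 and 0.078. Eif2s1, which encodes the phosphorylated subunit of eIF2, stood at 0.36 ± 0.094, 0.33 ± 0.094 and 0.19 ± 0.094 with myclobutanil, propiconazole and triadimefon (limma adjusted p = 0.0755, 0.13 and 0.418). After quantile normalization all 9 treated rats lay above the controls. For each compound taken singly, 10.2%, 12.1% and 12.5% of all probe sets did so. The heme-regulated eIF2 kinase gene Eif2ak1 stood at -0.19 ± 0.071 with myclobutanil (limma adjusted p = 0.168). Ppp1r15b, whose product helps to dephosphorylate eIF2, stood at -0.15 ± 0.077 with propiconazole and 0.16 ± 0.077 with triadimefon (limma adjusted p = 0.407 and 0.401). In the matched pair of compounds, Eif2ak2 (-0.16 ± 0.061) and Eif2ak4 (0.11 ± 0.060) were not called (limma adjusted p = 0.446 and 0.525).

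The 22 ER folding genes had medians of 0.035 with myclobutanil, -0.11 with propiconazole and -0.064 with triadimefon, and 2 of 22 differences were above 0 with propiconazole, 7 with triadimefon and 13 with myclobutanil. None was called in limma (at an unadjusted p under 0.05, 3 up and 1 down for myclobutanil, 0 and 2 for propiconazole, 0 and 1 for triadimefon). The myclobutanil median changed sign with the scaling, at -0.018 on the deposited values and -0.040 with median centring, while those of propiconazole and triadimefon stayed below 0 (-0.13 and -0.14 as deposited, -0.11 and -0.13 with median centring). The protein disulfide isomerase gene Pdia4 stood at -0.35 ± 0.11 and -0.32 ± 0.11 with these compounds and calreticulin, Calr, at -0.25 ± 0.091 and -0.19 ± 0.091 (limma adjusted p = 0.155, 0.236, 0.239 and 0.406). With myclobutanil, the disulfide isomerase gene P4hb stood at 0.23 ± 0.059 and the prolyl isomerase gene Fkbp11 at 0.63 ± 0.16 (limma adjusted p = 0.0737 and 0.0766). Both also stood higher with myclobutanil than with propiconazole, by 0.27 ± 0.059 and 0.65 ± 0.16 (limma adjusted p = 0.224 and 0.293), in a list with 9 genes up and 0 down at an unadjusted p under 0.05 for that pair (4.86% and 5.26% of all probe sets). The list's median for the pair was 0.14 with 18 of 22 above 0, and 0.079 with 14 above 0 with median centring.

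Of 26 tested genes of ER-associated degradation and translocation, none was called in limma (at an unadjusted p under 0.05, 7 up and 1 down for myclobutanil, 3 and 1 for propiconazole, 2 and 0 for triadimefon). The medians were 0.079, -0.034 and 0.0024, and that of myclobutanil was -0.031 on the deposited values and -0.053 with median centring. Ube2j1, an ER ubiquitin-conjugating enzyme gene, stood at 0.26 ± 0.068, 0.28 ± 0.068 and 0.15 ± 0.068 (limma adjusted p = 0.0755, 0.0731 and 0.349). After quantile normalization all 9 treated rats again lay above the controls. The translocon gene Ssr1 stood at 0.26 ± 0.065 with myclobutanil (limma adjusted p = 0.0709). Ube2g2 stood at 0.37 ± 0.13 with propiconazole (limma adjusted p = 0.228). The mannosidase-like gene Edem1 stood at 0.45 ± 0.18 with propiconazole and 0.41 ± 0.18 with triadimefon (limma adjusted p = 0.289 and 0.37). Myclobutanil minus propiconazole was 0.31 ± 0.065 for Ssr1 and 0.29 ± 0.076 for the signal peptidase gene Spcs1 (limma adjusted p = 0.224 and 0.327).

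**Figure D4:**
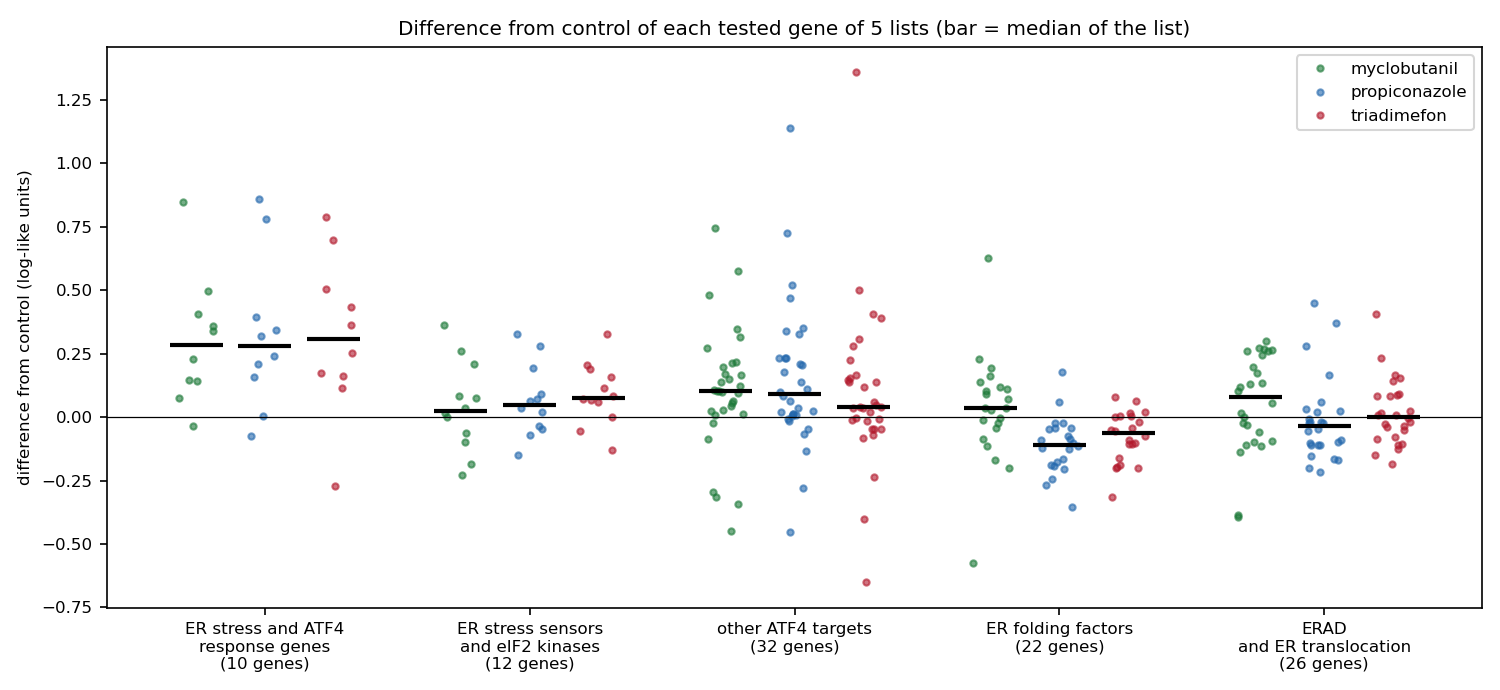
Difference from control (vertical axis, log-like units) of every tested gene in the 10-gene set and in 4 further lists, by compound, with the median of each list as a bar. The 10 genes have medians of 0.28, 0.28 and 0.31, and the ER folding genes 0.035, -0.11 and -0.064, for myclobutanil, propiconazole and triadimefon.

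Markers of other cells moved in the myclobutanil group. All 8 tested Kupffer cell and macrophage markers stood lower there, 5 of them called in limma (median difference -0.69), and their mean level ran from 0.29 to 0.90 against 1.21 to 1.33 in control. It ran from 1.12 to 1.25 with propiconazole and 1.06 to 1.23 with triadimefon, where none was called (0 at an unadjusted p under 0.05). In whole liver, fewer cells of a type and less RNA per cell cannot be told apart. The median difference of the hepatocyte markers was -0.10 with myclobutanil, -0.018 with propiconazole and 0 with triadimefon. It was -0.40, -0.35 and -0.31 on the deposited values and -0.42, -0.34 and -0.30 with median centring, with 8 of 9 markers below 0 in each case. Of these markers Apoa1 alone was called, higher with propiconazole (0.49 ± 0.089, limma adjusted p = 0.0278).

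Markers of plasma and B cells, which also carry a large ER, had mean levels between -0.15 and -0.063 in all arrays, with 3 of 6 measured markers in the dim part of the array. Those of T and NK cells ran from 0.055 to 0.093 in control, -0.021 to 0.014 with myclobutanil, 0.010 to 0.050 with propiconazole and 0.018 to 0.028 with triadimefon, so every treated group lay below control. Those of cholangiocytes ran from 0.050 to 0.12 in control, 0.15 to 0.29 with myclobutanil, 0.16 to 0.33 with propiconazole and 0.10 to 0.30 with triadimefon, the first 2 compounds wholly above control. In that list Epcam stood at 0.42 ± 0.15, 0.52 ± 0.15 and 0.39 ± 0.15 (limma adjusted p = 0.15, 0.133 and 0.286), but the medians were -0.018, 0.038 and 0.095. Of its 3 tested genes, 1 lay above 0 with myclobutanil and 2 with each other compound. The pancreas markers ran from -0.025 to 0.13. None of the lists named so far in this paragraph had a called gene (at most 4 at an unadjusted limma p under 0.05 in a comparison with control). Kdr of endothelium and Lrat of stellate cells were called lower with myclobutanil (-0.55 ± 0.11 and -0.36 ± 0.069) and propiconazole (-0.64 ± 0.11 and -0.40 ± 0.069). They were the 1 called marker of 4 and of 5, and the medians of their lists were -0.073 and -0.030 with myclobutanil and -0.13 and -0.018 with propiconazole. The part of these markers in the values of the 10 genes was not tested.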

How the data were processed

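Total RNA of 12 livers, 3 per group and 1 per array, was hybridized to Affymetrix rat arrays, per the labels' protocols. For each probe set the authors deposited 1 score that looks logarithmic. How they summarized and normalized it, and its log base and centring, is not given in the sources used here, while the plan had assumed a known log scale. No 2 arrays were identical.

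Of 31099 probe sets, 57 controls were left out, the rest were quantile normalized, and the dimmest 30% by mean level (9312) were not tested. In the platform annotation, 20826 probe sets have 1 gene, 436 several and 9780 none, and 20758 symbols were renewed through Entrez IDs (68 kept). A gene is represented by its probe set with the highest mean. Limma 3.58.1 (R 4.3.3) was fitted to 4 group means of 12 arrays with an intensity trend (8 residual degrees of freedom), and all tests are 2-sided. Each comparison was adjusted over its 21730 probe sets, and the number of arrays limits the precision. The fit was first tested on simulated data. Correlations were planned with 100000 free permutations (scipy 1.17.1); the exact permutation within groups was added after seeing the data and is the one reported.

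Named are the 10 genes, the called members of each list (up to 4) or the 2 with the smallest p, and the gene most alike to each. The 10 genes and the lists were chosen with earlier results of these data known. Atf3, Dnajb1, Cebpg and further compounds for a listed gene fall outside that rule and were picked with their values in view. Alternatives were the deposited scale, median centring, no filter or a 50% filter, 2 groups alone, array weights, no trend, the mean of a gene's probe sets, a replicate block and each array left out. Array weights by group and treated rats alone were added after seeing the data.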

Additional observations from a re-analysis of the deposited data

Results flagged for a closer look

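After quantile normalization, Sdf2l1 was the gene of the 10 in which all rats of one compound lay above all controls and all rats of another lay below them. On the deposited values its triadimefon rats overlapped the controls, with triadimefon replicate 2 at 1.75 and control replicate 1 at 1.71. The difference from control was 0.50 with myclobutanil at 300 mg/kg/day and -0.27 with triadimefon at 175 mg/kg/day (limma adjusted p = 0.0826 and 0.418). The difference between these 2 responses was not tested, since the doses differ, and both use the same 3 control rats. Groups of 3 rats are too small for a check of single outlying rats.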

How the results depend on the processing

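No gene of the 10 was called for myclobutanil, propiconazole or triadimefon against control, or between myclobutanil and propiconazole, on the deposited scale, with median centring, without or with a 50% filter, without the trend, with the mean of a gene's probe sets or with the replicate block (0 called in each). Called genes appeared elsewhere. For triadimefon 1 gene, Herpud1, was called with array weights, with array weights by group and with 2 groups alone. For myclobutanil against propiconazole 1, Herpud1 again, was called with array weights. With 1 rat left out the counts ran from 0 to 1 for myclobutanil and triadimefon against control and for the 4 groups at once, and stayed at 0 for the other comparisons. Over the 4 groups at once, 1 gene, Sdf2l1, was called with a 50% filter and with the mean of a gene's probe sets, and 2 (Sdf2l1 and Herpud1) with array weights.

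The replicate numbers did not pair the rats: 3 of 18 same-number pairs had deviations that correlated above 0.1 (range -0.49 to 0.50), and 3 of 12 arrays matched best with their own number. With the replicate block, 180 probe sets were called for myclobutanil, 121 for propiconazole and 87 for triadimefon, against 395, 311 and 167 without it. Array weights gave 1669, 1313 and 1028, array weights by group 22, 1144 and 765, and 2 groups alone 9, 645 and 609. With 1 rat left out the counts ran from 30 to 924, 36 to 969 and 6 to 611. For myclobutanil against propiconazole, array weights called 344 and leaving out 1 rat 0 to 29, against 0. Over the 4 groups at once 233 were called, 59 with the replicate block, 1751 with array weights and 559 with array weights by group.

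Signs that changed belonged to differences that were not called. On the deposited scale Hspa5 was at -0.15 with propiconazole and -0.029 with triadimefon, and with median centring at -0.13 and -0.018. Median centring put Dnajb9 with myclobutanil at -0.019, and array weights put Chac1 there at -0.092. Asns between myclobutanil and propiconazole was at 0.043 on the deposited scale, 0.0046 with median centring and 0.0080 with array weights. With 1 rat left out, differences from control ran from -0.038 to 0.26 for Chac1, -0.20 to 0.11 for Herpud1 and -0.13 to 0.23 for Dnajb9 with myclobutanil, -0.078 to 0.11 for Hspa5 and -0.18 to 0.0084 for Sdf2l1 with propiconazole, and -0.027 to 0.37 for Atf4 with triadimefon. Between myclobutanil and propiconazole they ran from -0.15 to 0.0071 for Atf4, -0.31 to 0.27 for Trib3, -0.20 to 0.18 for Asns and -0.29 to 0.13 for Chac1. The causes were not tested. By the planned permutation 5 correlations passed: Trib3, Ddit3 and Chac1 with Atf4, and Xbp1 and Dnajb9 with Hspa5. None of the 8 passed when rats were permuted within groups, a choice added after the data were seen.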
